A study of Rattus norvegicus with 10 samples.

Results

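This report describes what changed in rat lens explants within 2 hr of a rise in FGF2 from 5 to 100 ng/mL. The comparison has 4 arrays, 2 of the 2 hr explants and 2 of the 0 hr explants, out of the 10 arrays of the series. They were chosen by their titles, and all 31042 probe sets that are not array controls were tested on them. The explants were pieces of lens from 3-day-old rat pups of no stated strain or genotype, 6 explants for each assay. Every explant spent a night in 5 ng/mL FGF2. The 0 hr group was taken at the end of that night and the 2 hr group after 2 hr in 100 ng/mL recombinant FGF2, and 2 arrays at 4 hr, the next time point, served for comparison.

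The design limits how every value can be read. No explants kept for 2 hr more at 5 ng/mL were analysed here, so a change due to the dose and one due to 2 hr more in culture cannot be told apart. The names of the arrays put the 0 hr arrays in one series of numbers and the 2 and 4 hr arrays in another. What these numbers stand for is not stated, and whatever goes with them cannot be told apart from time. In a bulk sample, fewer cells of a type and less RNA per cell cannot be told apart.

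FGF2 binds receptor tyrosine kinases that act through Ras and the MAP kinases. These kinases phosphorylate factors that are already bound at the promoters of immediate early genes, such as the ternary complex Ets factors that sit with serum response factor (SRF) on CArG boxes, and those genes are then transcribed without new protein synthesis. Many of their products are transcription factors, and others are phosphatases and docking proteins that switch the kinases off again. In the lens, a low level of FGF keeps epithelial cells alive and dividing, and a high level starts the differentiation of fiber cells.

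The explants carried the transcripts of lens cells on all 4 arrays. Cryaa, which encodes the chaperone-like crystallin αA, stood at 22515 and 22644 at 0 hr and 22515 and 24806 at 2 hr in arbitrary intensity units. Cdh1, the epithelial cadherin, stood at 10484 and 9845 at 0 hr and 10782 and 11666 at 2 hr, and Pax6, the eye field factor, at 9866 and 9836 at 0 hr and 8397 and 8219 at 2 hr. Summed over 15 lens markers, the intensity ranged from 104028 to 105282 at 0 hr and from 93062 to 104613 at 2 hr, and 1 marker, Bfsp1, was called and fell (call lost at 0.066 without 0 hr replicate 2). No macrophage marker of 15 was called by limma (4 higher and 0 lower at unadjusted p under 0.05, summed intensity 717 to 904 at 0 hr and 814 to 1299 at 2 hr), and none of 4 red blood cell markers (0 and 0, 2286 to 2332 and 2152 to 3741). Both sums were highest on 2 hr replicate 1, and without 2 hr replicate 2 the macrophage markers that rose numbered 6. The leukocyte marker Ptprc was faint throughout, at 16.5 and 14.4 at 0 hr and 16.2 and 16.4 at 2 hr. None of 11 fibroblast markers was called (1 and 0), 1 of 9 pigment cell markers fell and 1 of 10 retinal markers rose. Of 10 endothelial markers 2 fell, Cldn5 and Vwf, with calls that were lost for Cldn5 (0.13, 0.21 and 0.18 without 0 hr replicate 1, 0 hr replicate 2 or 2 hr replicate 2) and Vwf (0.18, 0.18 and 0.2 without 0 hr replicate 1, 0 hr replicate 2 or 2 hr replicate 2). Their summed intensity was 2130 to 2646 and 2272 to 2300. Of 10 corneal markers 2 rose, the keratins Krt12 and Krt15, the second with a call that was lost without either 0 hr array, and the summed intensity was 367 to 406 at 0 hr and 1391 to 1797 at 2 hr. The corneal markers Krt5, Krt14 and Tp63 stayed below 50.0 on all 4 arrays. The part of these other cells in the results below was not tested.

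At 2 hr, 2672 probe sets rose (8.61% of those tested) and 2755 fell (8.88%), 17.5% in all, at an adjusted p under 0.05 from limma over all 10 arrays. With 1 probe set for each of 14217 genes, the brightest, 1352 genes rose (9.51%) and 1403 fell (9.87%), 19.4% in all. The directions were nearly even in number but not in size. Rises of at least 2-fold numbered 658 against 359 falls, rises of at least 4-fold 130 against 14, and rises of at least 8-fold 31 against 1. All 10 changes of at least 16-fold were rises. The median change of all probe sets was -0.003 on the log2 scale, that of the rises 0.66 and that of the falls -0.59. All called probe sets had 2 hr arrays that did not overlap the 0 hr arrays. Non-overlap alone was common, since both 2 hr arrays lay above both 0 hr arrays for 28.3% of probe sets and below them for 30.2%.

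Calls were less frequent among dim probe sets. Of the 7761 dimmest at 0 hr 3.52% rose and 0.57% fell, whereas in the part of equal size at the bright end 9.29% rose and 14.89% fell. Among 4525 genes with 2 or more probe sets, 1597 had a call, at all their probe sets in 255 and in opposite directions in 30. Leaving out either 0 hr array lowered the number of calls from 5427 to 1928 or 2136. The RNA of the 2 hr arrays also had lower ratios of 5′ to 3′ signal for Actb, at -1.68 and -2.13 on the log2 scale against -1.12 and -1.22 at 0 hr. The GAPDH ratio was lower as well, at -0.21 and -0.27 against -0.05 and 0.00, and 5S rRNA was brighter, at 208.5 and 208.6 against 128.7 and 153.8. With the Actb ratio as a covariate, called the Actb fit from here on, 1330 probe sets rose and 1130 fell. The part of RNA quality in the single results was not tested further. Because the lists are small, the number of members called is also given with 1 array left out, in the order 0 hr replicate 1, 0 hr replicate 2, 2 hr replicate 1 and 2 hr replicate 2, wherever a count above 2 moved by more than 1.5-fold, and the counts in the Actb fit are given by the same rule or where their balance turned. For a named gene whose call was lost with 1 array left out, the adjusted p of that fit is given or the loss alone is stated. Calls lost in the Actb fit are not marked for single genes. In that fit 157 of 322 called genes that were followed lost their call. Beside a count of 0, the count at an unadjusted p under 0.05 from limma is given in brackets as unadjusted. Every list count is to be read beside the shares of all genes, 9.51% risen and 9.87% fallen.

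The 20 largest rises held immediate early factors, secreted signals and genes best known from neurons. Nptx1, a secreted pentraxin of synapses, stood at 20.8 and 16.4 at 0 hr and 941 and 716 at 2 hr, a rise of 5.47 ± 0.32 (SE) on the log2 scale. Its 0 hr arrays lay among the dimmest probe sets, the 7761 with intensities up to 29.6, so the size of its rise depends on a baseline not shown to be above background. The same holds for Gem, Nefl and the Irx3 probe set described below, whose 0 hr arrays were also under 29.6. Nefm, the middle neurofilament subunit, stood at 45.8 and 46.7 at 0 hr and 1142 and 2368 at 2 hr, a rise of 5.15 ± 0.36. Egr2, a zinc finger factor, stood at 118 and 121 at 0 hr and 3451 and 4639 at 2 hr, a rise of 5.07 ± 0.25. For each of the 3 genes both 2 hr arrays lay more than 20-fold above both 0 hr arrays, and the adjusted p was 5.5e-05, 0.0001 and 2.3e-05.

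Next in size came the collagenase Mmp13 at 4.54 ± 0.46, Chac1, which breaks down glutathione, at 4.37 ± 0.44, and the chemokine Ccl2 at 4.36 ± 0.42. Arc, a neuronal immediate early gene, rose by 4.29 ± 0.41, from 61.5 and 73.1 to 889.6 and 1935. The RGK family GTPases Rrad and Gem, which inhibit calcium channels, rose by 3.93 ± 0.45 and 3.87 ± 0.35. Nab2 and Dusp5 are described with their families below. Rab20, a GTPase of endocytic traffic, rose by 3.77 ± 0.16, the signaling regulator Rgs17 by 3.29 ± 0.11 and Tent5a, a noncanonical poly(A) polymerase, by 3.26 ± 0.15. The value of Rgs17 is from 1 of its 5 probe sets, not the brightest, which was faint at 0 hr (27.8 and 32.4). The 2 arrays at 2 hr lay close together for Rab20, at 734 and 645, and further apart for Mmp13, at 424 and 1167. The largest SE among the 20 was that of Krt15, which went from 64.9 and 69.9 to 483 and 1331 (rise 3.57 ± 0.76, adjusted p 0.014) and had 4 hr arrays at 249 and 1715. Its call was lost in 3 of the 4 fits that left out an array (adjusted p 0.084, 0.072 and 0.074 without 0 hr replicate 1, 0 hr replicate 2 or 2 hr replicate 2). The other corneal keratin, Krt12, went from 31.7 and 46.7 to 402 and 179.

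**Figure D1:**
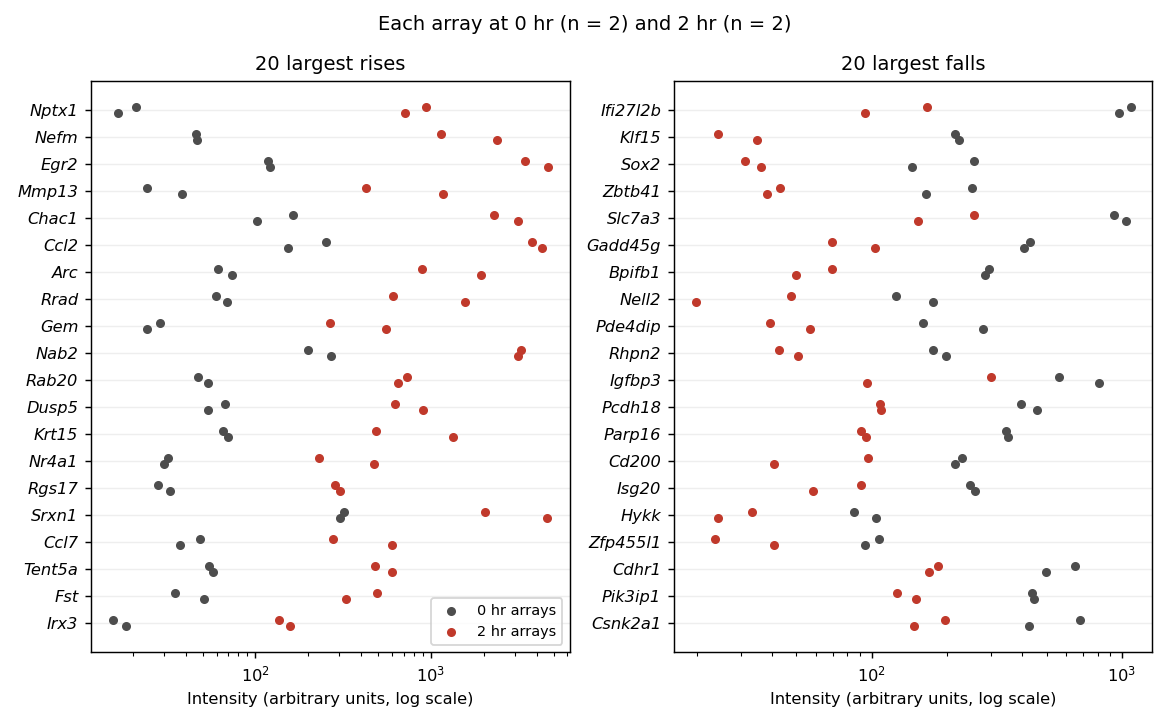
Intensity on a log scale of the 20 genes of largest rise and the 20 of largest fall, with 1 point for each array (0 hr, n = 2, and 2 hr, n = 2). Genes were chosen with arrays of the 2 times that do not overlap. The 2 hr arrays of Krt15 and Mmp13 among the rises and of Nell2 and Igfbp3 among the falls lie far from each other.

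Some of the risen genes held motifs for SRF and CREB close to their start. The stretches below are from promoters of early genes described below, read 5′ to 3′ on the strand of the gene (RefSeq, build GRCr8), with CArG boxes or cyclic AMP response elements (CRE, TGACGTCA) in capitals. They are shown because these elements are the docking sites of factors that the MAP kinases activate. Egr2 has its CArG box 83 bases before the start (chr20:21054505-21054534, minus strand), Dusp5 has 2 adjoining boxes from 82 bases before it (chr1:262543687-262543716, plus strand), Klf6 1 box at 201 bases (chr17:69458660-69458689, minus strand) and Srf 2 boxes from 81 bases (chr9:21923995-21924024, plus strand). Ier2 (chr19:40399296-40399325) and Plk2 (chr2:43702459-43702488) each have a CRE 66 bases before the start and Maff (chr7:112792725-112792754) at 51 bases, all on the plus strand.
Egr2: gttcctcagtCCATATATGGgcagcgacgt
Dusp5: aacacCCATATTTGGCCTTATATGGgcact
Klf6: aataggaaggCCTTTAATGGagaggctcgg
Srf: CCATATAAGGagcggcctcgCCATAAAAGG
Ier2: tggcgtttcagTGACGTCActcttactcta
Plk2: agccctcttcgTGACGTCAcgaggccccgc
Maff: cgctggggcggTGACGTCActgcatgactg
A match is a description of these letters and not a measured binding site.

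Across the array, CArG boxes stood in 6 of the 62 promoters (9.68%) of genes that rose at least 4-fold and in 1.3% of the promoters of genes that were not called. The window ran from 250 bases before to 50 after the start, both strands were searched, and 11700 of the 14217 genes had one in the table. The CRE stood in 3 of the 62 (4.84%) against 2.75%, and the AP-1 site TGANTCA, where Fos and Jun proteins bind, in 6 (9.68%) against 5.46%. The Egr site GCGNGGGCG stood in 9 (14.52%) against 9.04%. A TATA box (TATAAA) stood in 14 (22.58%) against 8.61%. The Ets site CCGGAAGN was less frequent, in 4 (6.45%) against 14.82%, and also in genes that fell at least 2-fold, at 7.26%. Genes that rose less than 2-fold held it in 18.04%. A degenerate NF-κB site stood in 75.81% against 62.7%, so that most promoters hold it. Among genes that fell at least 2-fold the shares were 1.61% for the CArG box, 1.61% for the CRE, 5.65% for the AP-1 site and 7.26% for the TATA box. The CRE and the AP-1 site share their outer letters but differ in spacing, so no stretch counts as both. These shares are descriptions, with no test. The GC content differed as well, with a median of 63.8% in the promoters of genes risen at least 4-fold and 59.3% in those not called. Those genes were also shorter, with a median genomic span of 10.9 kb against 22 kb. All 82 of them had a span in the table.

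**Figure D2:**
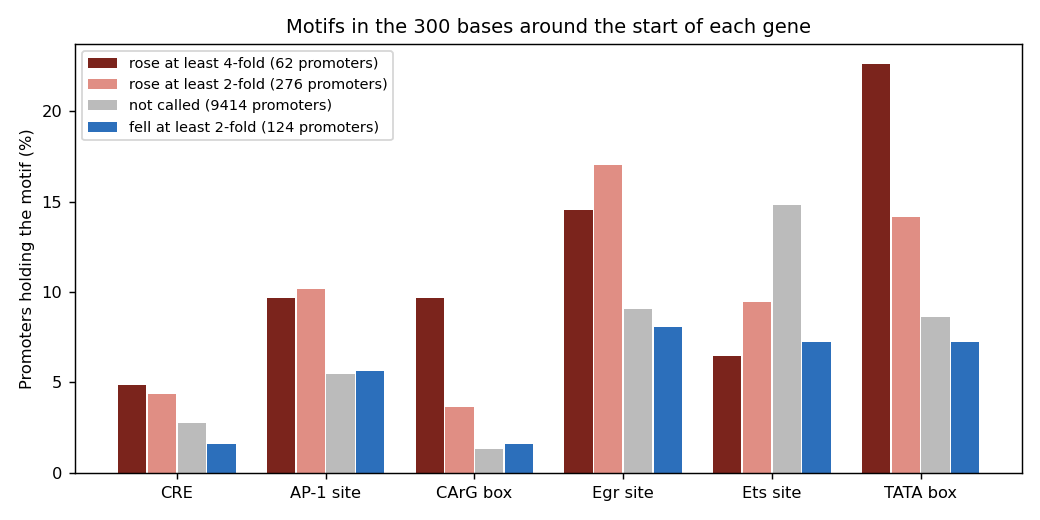
Share of promoters that hold each motif, as bars from 0, for genes that rose at least 4-fold (62 promoters), rose at least 2-fold (276, which include the 62), were not called (9414) or fell at least 2-fold (124). The TATA box and the CArG box are at their highest in genes that rose at least 4-fold, and the Ets site in genes that were not called.

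Most of the AP-1 factors measured rose. Of 14 measured genes of the Fos, Jun, Atf3 and small Maf families, 9 rose and 1 fell, with a median change of 0.91 on the log2 scale against -0.01 over all genes, of which 9.51% rose and 9.87% fell. Fos, a partner of the Jun proteins, stood at 894 and 791 at 0 hr and 2396 and 3279 at 2 hr. Fosl1, a more stable relative, stood at 300.4 and 293 at 0 hr and 1399 and 1801 at 2 hr, and Junb at 238 and 215 at 0 hr and 961 and 952 at 2 hr. All 3 had 2 hr arrays well above the 0 hr arrays, with rises of 1.74 ± 0.18, 2.42 ± 0.25 and 2.08 ± 0.12 and adjusted p of 0.00063, 0.00055 and 4.1e-05. The small Maf proteins Maff and Mafk rose by 2.09 ± 0.20 and 0.94 ± 0.12, and Jun itself by 0.88 ± 0.14. The stress factor Atf3 spread widely at 2 hr, at 229 and 997 against 67.0 and 52.5 at 0 hr, and rose by 3.01 ± 0.61. Fosb rose by 1.87 ± 0.36 and Fosl2 by 0.50 ± 0.14, and Batf fell by 0.55 ± 0.12. Jund, Mafg, Jdp2 and Batf3 changed by 0.23, 0.06, 0.01 and 0.20 and were not called. When 1 array was left out, 6 to 9 members rose, and in the Actb fit 6 rose and 0 fell. The calls lost were those of Atf3 (0.057 and 0.074 without 0 hr replicate 1 or 0 hr replicate 2), Fosb (0.051 and 0.065 without 0 hr replicate 1 or 0 hr replicate 2), Fosl2 (0.22, 0.084 and 0.16 without 0 hr replicate 1, 0 hr replicate 2 or 2 hr replicate 2) and Batf (0.1 and 0.051 without 0 hr replicate 2 or 2 hr replicate 2). Fos and Jun have further probe sets, 1 for Fos at -0.01 and 2 for Jun at -0.17 and -0.25, that were not called.

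Egr1, Egr2 and the Nab corepressors of Egr factors rose. Of 16 measured zinc finger factors, orphan receptors and corepressors, 10 rose, all by at least 2-fold, 2 fell and the median change was 1.45. Egr1 was already bright at 0 hr, at 2528 and 2369, and reached 13929 and 14499 at 2 hr. Nab2, a corepressor that Egr factors induce and that silences them, stood at 199 and 268 at 0 hr and 3253 and 3115 at 2 hr, and its relative Nab1 at 476 and 483 at 0 hr and 1825 and 1645 at 2 hr. The rises were 2.54 ± 0.10 for Egr1, 3.78 ± 0.13 for Nab2 and 1.85 ± 0.13 for Nab1, each far larger than the spread between arrays (adjusted p 1.4e-05, 8e-06 and 0.0001). Egr3 and Egr4 changed by 0.13 and -0.02 and were not called.

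Nr4a1, an orphan nuclear receptor, rose from 31.8 and 30.1 to 231 and 476, while Nr4a3 changed by 0.61 without a call and Nr4a2 fell by 0.41 ± 0.11. The Kruppel-like factors split. Klf5 and Klf6, which promote growth in many epithelia, rose by 2.06 ± 0.26 and 2.07 ± 0.23, and Klf4 and Klf10 by 1.72 ± 0.17 and 1.18 ± 0.11. Klf11, a TGF-β-inducible repressor, stood at 1034 and 1061 at 0 hr and 309.8 and 448 at 2 hr and fell by 1.49 ± 0.15, at all 3 of its probe sets. Snai1, a repressor of epithelial genes, rose by 1.07 ± 0.23. Calls were lost for Snai1 (0.11 and 0.07 without 0 hr replicate 1 or 2 hr replicate 1) and Nr4a2 (0.25, 0.052, 0.085 and 0.12 without 0 hr replicate 1, 0 hr replicate 2, 2 hr replicate 1 or 2 hr replicate 2).

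Of 26 other early response genes 18 rose and none fell (unadjusted 0), with a median of 0.72. Myc stood at 63.2 and 44.9 at 0 hr and 308 and 449 at 2 hr, a rise of 2.80 ± 0.30. Ier2, an early nuclear protein, stood at 532 and 459 at 0 hr and 2160 and 2338 at 2 hr, a rise of 2.18 ± 0.12, and Phlda1 at 53.4 and 57.7 at 0 hr and 332 and 373 at 2 hr, a rise of 2.66 ± 0.13. The arrays of each time lay close together for Ier2 and Phlda1 and were separate from those of the other time for all 3. Plk2, Ier5l and Homer1 rose by 2.22 ± 0.33, 1.67 ± 0.17 and 0.94 ± 0.12. The matrix protein gene Ccn1 rose by 1.52 ± 0.27, whereas its relative Ccn2 changed by 0.25 and was not called. In the fits without 1 array, 10, 9, 18 and 12 members rose, and in the Actb fit 8 rose and 1 fell. The call of Ccn1 was lost (0.051 without 0 hr replicate 2).

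**Figure D3:**
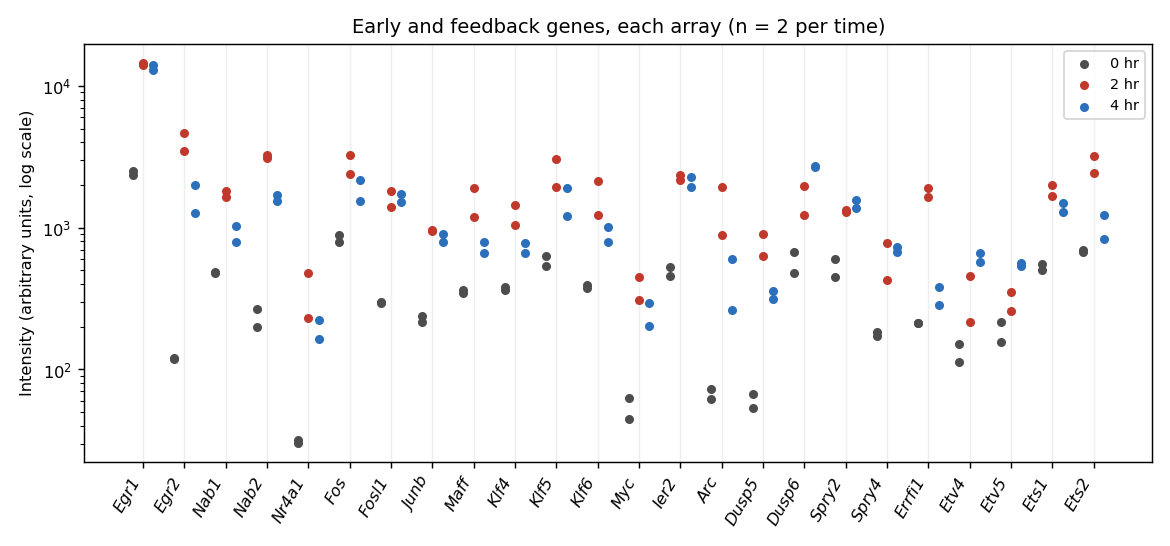
Intensity on a log scale of 24 early and feedback genes on each array at 0, 2 and 4 hr (n = 2 per time). All 24 have 2 hr arrays above the 0 hr arrays, and for Egr2, Nab2, Dusp5, Errfi1 and Ets2 the 4 hr arrays lie below the 2 hr arrays.

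Feedback inhibitors of the MAP kinase pathway rose as well. Of 10 measured Dusp genes, which encode phosphatases of MAP kinases, 6 rose and 1 fell, with a median of 0.88. Dusp5, a nuclear phosphatase of ERK, stood at 67.5 and 53.3 at 0 hr and 626 and 901 at 2 hr. Dusp6, a cytoplasmic one, stood at 673 and 479 at 0 hr and 1954 and 1222 at 2 hr, and Dusp1, which also acts on p38 and JNK, at 550.1 and 582 at 0 hr and 1211 and 1676 at 2 hr. The 2 hr arrays lay above the 0 hr arrays for each, by 3.65 ± 0.19, 1.44 ± 0.24 and 1.33 ± 0.15 (adjusted p 2.7e-05, 0.0043 and 0.00074), and Dusp6 rose at all 3 of its probe sets. Dusp2 rose by 1.42 ± 0.16, Dusp10 by 1.42 ± 0.29 and Dusp7 by 0.44 ± 0.10, and Dusp14 fell by 0.59 ± 0.12. Dusp4, Dusp8 and Dusp9 changed by 0.11, 0.10 and -0.03 and were not called. The calls lost were those of Dusp10 (0.089 and 0.055 without 0 hr replicate 1 or 0 hr replicate 2), Dusp7 (0.12, 0.11, 0.076 and 0.054 without 0 hr replicate 1, 0 hr replicate 2, 2 hr replicate 1 or 2 hr replicate 2) and Dusp14 (0.064, 0.085 and 0.056 without 0 hr replicate 1, 0 hr replicate 2 or 2 hr replicate 1).

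Among 12 Sprouty, Spred and other feedback genes 5 rose and 2 fell. Errfi1, which inhibits the EGF receptor, stood at 214 and 213 at 0 hr and 1633 and 1901 at 2 hr, and its rise of 3.04 ± 0.15 was the largest of the group. Spry2 stood at 603 and 447 at 0 hr and 1281 and 1325 at 2 hr and Spry4 at 185 and 171 at 0 hr and 775 and 428 at 2 hr, with rises of 1.33 ± 0.15 and 1.70 ± 0.23. Sprouty genes did not move alike, since Spry1 changed by -0.25 without a call and Spry3 fell by 0.43 ± 0.11. Flrt3, a membrane partner of FGF receptors, fell by 0.79 ± 0.14. After 1 array was left out, 3, 3, 4 and 5 members rose, and calls were lost for Spry3 (0.17, 0.063 and 0.098 without 0 hr replicate 1, 0 hr replicate 2 or 2 hr replicate 1) and Flrt3 (0.059 without 0 hr replicate 2).

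The core of the pathway changed less. Of 29 FGF ligands, receptors and adaptors 3 rose (10.3%, against 9.51% of all genes) and 1 fell (3.4%, against 9.87%), with a median of 0.03. Fgfr1 rose by 0.65 ± 0.12, at both of its probe sets, while Fgfr2 and Fgfr3 changed by -0.10 and -0.33 and were not called, and Fgfr4 fell by 0.57 ± 0.17. Fgf2 itself changed by 0.03. Sdc4, a heparan sulfate coreceptor of FGF2, rose from 4717 and 5335 to 11342 and 10227, which is 1.10 ± 0.12. Of 23 kinases and adaptors of the MAP kinase cascades 5 rose and 2 fell, with a median of 0.01, close to that of all genes. The largest of them were rises of Map3k14, the kinase that starts the noncanonical NF-κB pathway, by 1.54 ± 0.14 and of Map2k3, which activates p38, by 1.06 ± 0.13. Map3k1 fell by 0.59 ± 0.10. With 1 array left out 1, 2, 4 and 4 of the FGF genes and 3, 4, 5 and 4 of the kinases rose, and in the Actb fit 1 rose and 0 fell of the FGF genes. Calls were lost for Fgfr1 (0.063 without 0 hr replicate 1), Fgfr4 (0.062, 0.28, 0.17 and 0.086 without 0 hr replicate 1, 0 hr replicate 2, 2 hr replicate 1 or 2 hr replicate 2) and Map3k1 (0.052 without 0 hr replicate 1).

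Ets factors, many of which are targets or substrates of ERK, rose at 8 of 18 members and fell at none (unadjusted 1), with a median of 0.36. Ets2 stood at 671 and 700.2 at 0 hr and 2441 and 3214 at 2 hr and Ets1 at 504 and 552 at 0 hr and 1675 and 1993 at 2 hr. The 2 hr arrays were about 3 to 5 times as bright as the 0 hr arrays, with rises of 2.03 ± 0.19 and 1.79 ± 0.13. Etv4 and Etv5, classic FGF targets, were more variable, at 151 and 113 at 0 hr and 456 and 215 at 2 hr and at 217 and 156 at 0 hr and 354 and 258 at 2 hr, and rose by 1.26 ± 0.31 and 0.72 ± 0.18. The repressors Etv3 and Etv6 rose by 1.11 ± 0.09 and 1.28 ± 0.16. Etv1, Erf and the ternary complex factors Elk1, Elk3 and Elk4 changed by 0.03 to 0.37 and were not called. When 1 array was left out, 6, 5, 7 and 8 members rose, in the Actb fit 5 rose and 0 fell, and calls were lost for Etv4 (0.065, 0.15 and 0.062 without 0 hr replicate 1, 0 hr replicate 2 or 2 hr replicate 1) and Etv5 (0.17 and 0.12 without 0 hr replicate 2 or 2 hr replicate 1). Among 15 genes of the EGF family only Hbegf, an EGF receptor ligand, at 2.50 ± 0.15 and Erbb2 at 0.73 ± 0.11 rose. Areg, at 1.03, was not called.

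**Figure D4:**
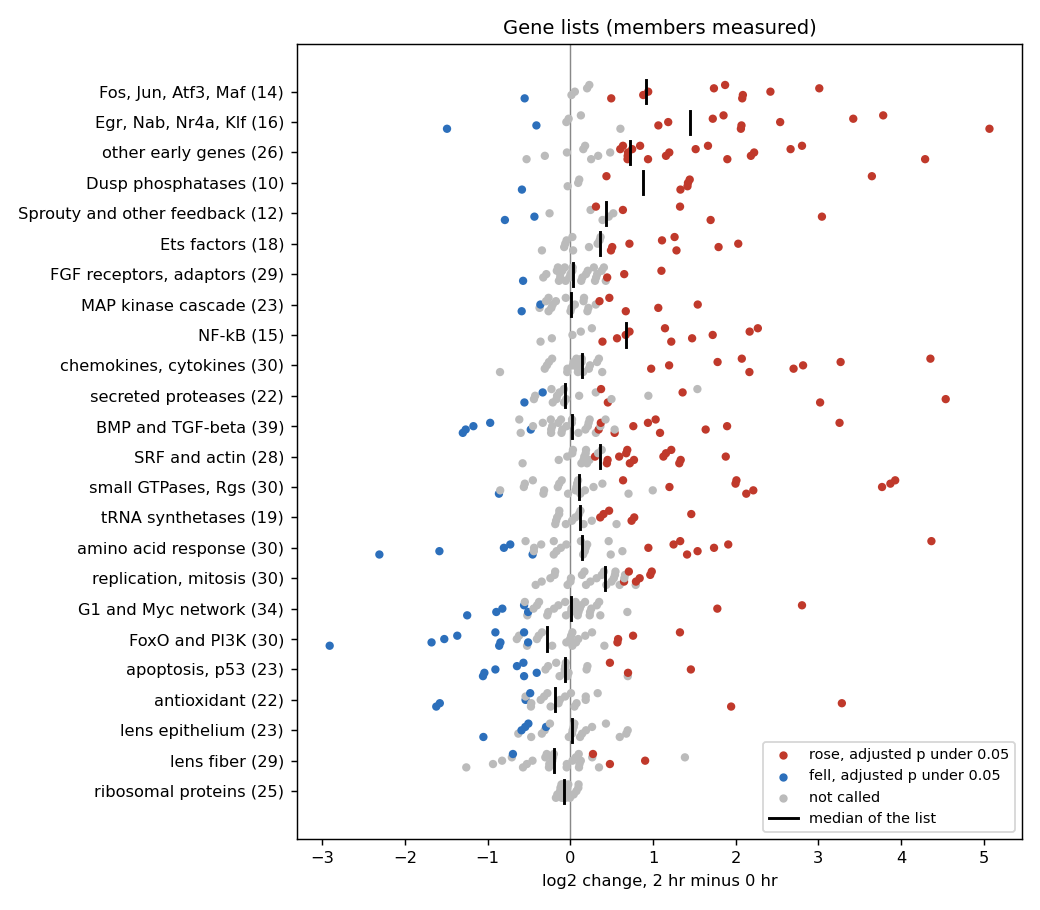
Change from 0 to 2 hr on the log2 scale of each member of 24 gene lists (1 point for each gene, its brightest probe set), with the median of the list as a black bar and the number of measured members in parentheses. The early factors, Dusp and NF-κB lists lie mostly to the right of 0, the FoxO list to its left, and the ribosomal protein list within 0.2 of it.

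Genes of inflammation formed a second group of rises. Of 15 NF-κB subunits, regulators and targets 10 rose and none fell (unadjusted 0), with a median of 0.67. The subunit genes Relb and Nfkb2 stood at 227 and 271 at 0 hr and 811 and 822 at 2 hr and at 410.2 and 472 at 0 hr and 1038 and 1014 at 2 hr. Icam1, an adhesion molecule and NF-κB target, stood at 216 and 223 at 0 hr and 1085 and 1026 at 2 hr. These arrays were separate by at least 2-fold, and the rises were 1.72 ± 0.13, 1.22 ± 0.18 and 2.27 ± 0.10. Vcam1 rose by 2.17 ± 0.28, Nfkbiz by 1.47 ± 0.13, Nfkb1 by 1.15 ± 0.12 and Rela by 0.72 ± 0.09. Nfkbia, the inhibitor that NF-κB induces, rose by 0.67 ± 0.13 and was higher still at 4 hr, by 0.81 ± 0.13 (adjusted p 0.014). Tnfaip3, another such inhibitor, changed by 0.13 without a call. In the fits without 1 array, 7 to 9 members rose, and the call of Nfkbia was lost (0.088 without 0 hr replicate 1).

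Of 30 chemokines, cytokines and related genes 9 rose and none fell (unadjusted 2), with a median of 0.15. Ccl2, which draws monocytes, stood at 252 and 153 at 0 hr and 3770 and 4284 at 2 hr and its neighbor Ccl7 at 48.3 and 37.2 at 0 hr and 276 and 603 at 2 hr. Cxcl1, which draws neutrophils, stood at 126 and 102 at 0 hr and 897 and 703 at 2 hr, and Ptgs2, the inducible cyclooxygenase, at 204 and 179 at 0 hr and 918 and 1685 at 2 hr. All 4 were clear of the 0 hr arrays, with rises of 4.36 ± 0.42, 3.27 ± 0.47, 2.82 ± 0.26 and 2.70 ± 0.43. Ccl20, Cxcl3 and Il18 rose by 2.17 ± 0.36, 2.07 ± 0.36 and 1.78 ± 0.19. The classic cytokines Il6, Il1b and Tnf changed by -0.28, 0.23 and 0.09 and were not called, so that the rises covered part of the list. The part of macrophages in these rises was not tested. Among 17 genes of the JAK-STAT pathway Socs5 rose by 1.64 ± 0.13 and Stat3 by 0.66 ± 0.13, whereas Stat2, which serves interferon receptors, fell from 450.4 and 472 to 297 and 299. After 1 array was left out, 2, 1, 3 and 2 members rose, in the Actb fit 1 rose and 1 fell, and the call of Stat3 was lost (0.078 without 0 hr replicate 2).

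Of 22 metalloproteinases, plasminogen activators, their receptors and inhibitors 5 rose and 2 fell. Plaur, the urokinase receptor, stood at 83.5 and 75.1 at 0 hr and 578 and 714 at 2 hr, a rise of 3.02 ± 0.15, and Mmp13 at 23.9 and 38.2 at 0 hr and 424 and 1167 at 2 hr. Both were faint at 0 hr. The aggrecanase Adamts1 rose by 1.36 ± 0.22. Mmp9 changed by 1.54 without a call. With 1 array left out 3, 3, 4 and 8 members rose and 0, 0, 1 and 1 fell.

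SRF targets of the actin cytoskeleton rose at 14 of 28 members and fell at none (unadjusted 1), with a median of 0.36, and the changes were smaller than those of the early factors. Srf, whose promoter holds the CArG boxes shown above, stood at 512 and 524 at 0 hr and 1136 and 1173 at 2 hr, a rise of 1.16 ± 0.11. Vcl, the focal adhesion protein vinculin, stood at 1904 and 1927 at 0 hr and 4650 and 4908 at 2 hr, and Pdlim7 at 310.4 and 313 at 0 hr and 1080 and 1217 at 2 hr. The 2 groups of arrays were well apart for these genes, with rises of 1.32 ± 0.14 and 1.88 ± 0.13. Zyx rose by 1.34 ± 0.15, Actn4 by 0.72 ± 0.09, Flna by 0.69 ± 0.10 and Myh9 by 0.59 ± 0.08. Of the tropomyosins Tpm3 rose by 0.44, with a call that was lost without either 0 hr array or 2 hr replicate 1. Tpm1, Tpm2 and Tpm4 changed by 0.17, 0.16 and 0.02 and were not called. When 1 array was left out, 8, 10, 11 and 12 members rose, and in the Actb fit 8 rose and 0 fell.

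Among 30 small GTPases, their effectors and Rgs genes 9 rose and 1 fell, with a median of 0.11, so that a few rises were large and most members changed little. Beside Rrad, Gem and Rab20, the rises included Rhob, an early response GTPase, at 2162 and 2051 at 0 hr and 7992 and 8848 at 2 hr, Rnd3, which opposes RhoA, at 1394 and 1340 at 0 hr and 4732 and 8476 at 2 hr, and Rab7b at 154 and 141 at 0 hr and 621 and 668 at 2 hr. Their rises were 2.00 ± 0.11, 2.21 ± 0.28 and 2.13 ± 0.13. Rhoa, Rac1 and Cdc42 changed by 0.12, 0.07 and -0.03 and were not called.

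Of 28 genes known from neurons 5 rose (17.9%) and 3 fell (10.7%), with a median of 0.04. The rises were Nptx1, Nefm, Nefl, Nefh and Dclk1. The falls were Gap43, Lingo1 and Kcnk1, with changes of -1.43, -0.65 and -0.40, and each lost its call in at least 1 fit that left out an array. Nefl, the light neurofilament subunit, lies next to Nefm and stood at 21.1 and 26.5 at 0 hr and 104 and 178 at 2 hr, a rise of 2.52 ± 0.26. Dclk1, a microtubule-binding kinase, stood at 1900 and 1892 at 0 hr and 9592 and 10438 at 2 hr, a rise of 2.40 ± 0.13, although its other 3 probe sets were not called. The call of Nefh was lost (0.068, 0.06 and 0.05 without 0 hr replicate 1, 0 hr replicate 2 or 2 hr replicate 1), and with 1 array left out 0, 1, 3 and 2 members fell, and in the Actb fit 6 rose and 0 fell. The neuronal filament genes Ina and Prph changed by -0.12 and -0.20. Neighboring genes were listed only where both rose. The pairs examined were not counted, so the number of such pairs has no share of all pairs beside it. In 14 pairs of neighboring protein-coding genes both members rose at least 2-fold, among them Nefl with Nefm, Ccl2 with Ccl7, Cxcl1 with Cxcl2, whose call was lost (0.051 without 0 hr replicate 2), and Plekhg2 with Zfp36.

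Genes of BMP and TGF-β signaling moved both ways. Of 39 members 10 rose and 5 fell, with a median of 0.02. Bmp2 was the ligand of largest rise, at 814 and 861 at 0 hr and 3111 and 3122 at 2 hr, which is 1.90 ± 0.21. Fst and Grem1, secreted proteins that trap activins and BMPs, rose by 3.26 ± 0.40 and 1.64 ± 0.33. Fst stood at 35.0 and 50.6 at 0 hr and 494 and 328 at 2 hr and rose at both of its probe sets. Inside the cell, Smurf1, a ligase that removes Smads, rose by 1.09 ± 0.14, and the corepressors Skil and Tgif1 by 1.03 ± 0.12 and 0.94 ± 0.09. Smad6, an inhibitory Smad that BMPs induce, fell from 394 and 357 to 169.9 and 163. Id2, another BMP target, fell by 1.27 ± 0.25. Smad9 and Inhba fell, with changes of -1.30 ± 0.28 and -0.97 ± 0.20. Id1 and Smad7 changed by 0.02 and 0.22 and were not called. In the fits without 1 array, 5, 7, 8 and 8 members rose and 3, 1, 6 and 3 fell, and in the Actb fit 5 rose and 2 fell. The calls lost were those of Grem1 (0.088 without 0 hr replicate 1), Id2 (0.081 without 0 hr replicate 2), Smad9 (0.076, 0.086 and 0.068 without 0 hr replicate 1, 0 hr replicate 2 or 2 hr replicate 2) and Inhba (0.07 and 0.078 without 0 hr replicate 1 or 0 hr replicate 2).

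Of the Wnt pathway 6 of 32 members rose and 3 fell. Wnt4 rose from 31.6 and 28.3 to 72.1 and 83.9, and the receptors divided, with Fzd1 at 0.79 ± 0.11 and Fzd4 at -1.03 ± 0.09. After 1 array was left out, 2, 2, 4 and 5 members rose, and in the Actb fit 1 rose and 1 fell. Of 23 Notch genes 2 rose (8.7%, against 9.51% of all genes), and fewer did when either 0 hr array was left out. The repressor gene Hes6 fell by 0.76 ± 0.09, the 1 fall of the list. Among ephrins, semaphorins and their receptors 4 of 23 rose and 2 fell. Epha2, a receptor of the lens, rose from 701 and 646 to 2088 and 1594, or 1.44 ± 0.14. Sema4a went from 163 and 135 to 60.4 and 55.7, so that it fell by 1.35 ± 0.11. With 1 array left out 2, 2, 2 and 3 members rose and 1, 1, 2 and 1 fell, and in the Actb fit 1 rose and 2 fell.

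The falls were led by an interferon-inducible gene, Ifi27l2b, which went from 1085 and 974 to 166 and 93.9 and fell by 3.04 ± 0.27. Klf15, a metabolic regulator, stood at 215 and 223 at 0 hr and 24.4 and 34.7 at 2 hr, and Gadd45g, a growth arrest protein, at 431 and 405 at 0 hr and 69.3 and 103 at 2 hr. The 2 hr arrays lay more than 3-fold below the 0 hr arrays in each, with changes of -2.91 ± 0.18 and -2.30 ± 0.19. Zbtb41, Bpifb1, Pcdh18 and Parp16 fell, with changes of -2.33 ± 0.23, -2.30 ± 0.15, -1.98 ± 0.10 and -1.91 ± 0.14. Isg20, an interferon-stimulated nuclease, fell by 1.79 ± 0.24. Nell2, Igfbp3 and Cd200 fell, by 4.82-, 3.99- and 3.56-fold, with wide spreads at 2 hr, and calls were lost for Igfbp3 (0.087, 0.16 and 0.11 without 0 hr replicate 1, 0 hr replicate 2 or 2 hr replicate 2) and Cd200 (0.18, 0.16 and 0.2 without 0 hr replicate 1, 0 hr replicate 2 or 2 hr replicate 2). Sox2 stands in this group through 1 of its 4 probe sets (256 and 146 at 0 hr and 31.2 and 36.0 at 2 hr), while its brightest one fell by 0.51 ± 0.12 (call lost at 0.13, 0.093 and 0.09 without 0 hr replicate 1, 0 hr replicate 2 or 2 hr replicate 2) and 1 was not called.

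The FoxO factors promote growth arrest and are held inactive by growth factors through PI3K and Akt. Of 30 FoxO genes, FoxO targets and PI3K regulators 9 fell and 4 rose, with a median of -0.28. Pik3ip1, an inhibitor of PI3K, stood at 437 and 446 at 0 hr and 126 and 151 at 2 hr, and Sesn1, a stress-responsive inhibitor of mTORC1, at 414 and 457 at 0 hr and 149 and 191 at 2 hr. Tob1, an antiproliferative protein, stood at 2479 and 2828 at 0 hr and 773 and 1096 at 2 hr, and Bcl2l11, which encodes the death protein Bim, at 1043 and 1187 at 0 hr and 590.1 and 598 at 2 hr. The 2 hr arrays were below the 0 hr arrays for all 4 genes, with changes of -1.68 ± 0.18, -1.37 ± 0.14, -1.52 ± 0.19 and -0.91 ± 0.13 (adjusted p 0.00073, 0.00062, 0.0013 and 0.0023). Txnip, which limits glucose uptake, fell by 0.86 ± 0.15, and Bcl6 fell by 0.85 ± 0.16. Cdkn1b, the cell cycle inhibitor p27, fell by 0.56 ± 0.14 and at its second probe set too. Cited2 rose by 1.33 ± 0.15. When 1 array was left out, 6, 7, 8 and 10 members fell and 1, 2, 4 and 1 rose, in the Actb fit 1 rose and 10 fell, and calls were lost for Txnip (0.053 without 0 hr replicate 1), Bcl6 (0.068 and 0.054 without 0 hr replicate 1 or 0 hr replicate 2) and Cdkn1b (0.13, 0.13 and 0.13 without 0 hr replicate 1, 0 hr replicate 2 or 2 hr replicate 1).

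Genes of the G1 phase and of the Myc network fell at 5 of 34 members and rose at 2. The lists overlap, and the rise of Myc is also counted among the early genes above. Mycn and Myc went opposite ways, Mycn from 1460 and 1439 to 594 and 628, or 2.37-fold lower, and Myc up as given above. At 4 hr Mycn was back at 1536 and 1483. Ccnd1, the cyclin that growth factors induce in most cells, fell by 0.82 ± 0.17, and Cdkn2b, a Cdk4 inhibitor, rose by 1.78 ± 0.45 with 2 hr arrays at 321 and 143. Of 30 replication and mitosis genes 6 rose and none fell (unadjusted 1), with a median of 0.42. They were the mitotic genes Ccnb1 at 0.97 ± 0.16, Espl1, Ube2c, Plk1, Kif11 and Cenpf, whereas Pcna and the 6 Mcm genes measured, of the replication machinery, changed by -0.18 to 0.24 without a call. In the fits without 1 array, 2, 2, 3 and 4 of the G1 genes fell and 2, 2, 3 and 3 of the replication and mitosis genes rose. In the Actb fit the balance of the G1 list turned, since 6 rose and 3 fell. On the 0 and 2 hr arrays alone 13 of the 30 replication and mitosis genes rose. Calls were lost for Ccnd1 (0.1 and 0.065 without 0 hr replicate 1 or 2 hr replicate 2), Cdkn2b (0.13, 0.11 and 0.13 without 0 hr replicate 1, 0 hr replicate 2 or 2 hr replicate 1), Espl1 (0.099, 0.056 and 0.07 without 0 hr replicate 1, 0 hr replicate 2 or 2 hr replicate 1), Plk1 (0.1, 0.075 and 0.078 without 0 hr replicate 1, 0 hr replicate 2 or 2 hr replicate 2), Kif11 (0.16, 0.13, 0.14 and 0.058 without 0 hr replicate 1, 0 hr replicate 2, 2 hr replicate 1 or 2 hr replicate 2) and Cenpf (0.12, 0.24, 0.058 and 0.19 without 0 hr replicate 1, 0 hr replicate 2, 2 hr replicate 1 or 2 hr replicate 2).

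Of 23 genes of apoptosis and p53 signaling 7 fell (30.4%) and 3 rose. Ccng1 and Phlda3, both p53 targets, stood at 4977 and 4564 at 0 hr and 2330 and 2257 at 2 hr and at 574 and 589.5 at 0 hr and 327 and 245 at 2 hr. The death genes Bmf and Bad fell, with changes of -0.57 ± 0.10 and -0.56 ± 0.10, and the survival gene Mcl1 rose by 0.70 ± 0.12 at both of its probe sets. Perp, another p53 target, went the other way and rose by 1.46 (adjusted p 0.0013 by limma), the largest change of the list. The p53 targets Cdkn1a, Mdm2 and Bbc3 changed by 0.01, 0.21 and -0.27 and were not called. After 1 array was left out, 4, 2, 5 and 4 members fell, in the Actb fit 3 rose and 3 fell, and calls were lost for Ccng1 (0.05 without 0 hr replicate 1), Phlda3 (0.14, 0.15, 0.051 and 0.15 without 0 hr replicate 1, 0 hr replicate 2, 2 hr replicate 1 or 2 hr replicate 2), Bmf (0.055 and 0.052 without 0 hr replicate 1 or 0 hr replicate 2) and Bad (0.058 without 0 hr replicate 2).

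The amino acid response divided into genes that rose and genes that fell. Of 30 genes, Atf4, the factor of amino acid shortage, and its targets, 8 rose and 5 fell, with a median of 0.14. Atf4 itself stood at 2337 and 2173 at 0 hr and 5154 and 5568 at 2 hr, a rise of 2.38-fold. The transporter gene Slc7a1 stood at 297 and 251 at 0 hr and 1059 and 991 at 2 hr and its relative Slc7a3, which carries the same cationic amino acids, at 933 and 1037 at 0 hr and 256 and 154 at 2 hr. Slc7a1 thus rose by 1.91 ± 0.20 while Slc7a3 fell by 2.31 ± 0.24. Asns, asparagine synthetase, fell by 1.58 ± 0.20, from 1374 and 1184 to 446 and 406, and stood at 821 and 1299 at 4 hr. Beside Atf4, Slc7a1 and Chac1, the rises were Mthfd2 at 1.33 ± 0.17, Ddit3 at 1.74 ± 0.34, Trib3, Sesn2 and Ppp1r15a. Aminoacyl-tRNA synthetases rose at 6 of 19 members, Cars1 by 1.46 ± 0.20, and fell at none (unadjusted 0). With 1 array left out 4, 5, 6 and 6 of the Atf4 list rose and 3, 2, 5 and 4 fell, and 4, 1, 2 and 5 of the synthetases rose. In the Actb fit 4 rose and 4 fell in the Atf4 list, and 1 rose and 0 fell among the synthetases. The calls lost were those of Ddit3 (0.066, 0.053 and 0.051 without 0 hr replicate 1, 0 hr replicate 2 or 2 hr replicate 2), Trib3 (0.094, 0.13, 0.09 and 0.066 without 0 hr replicate 1, 0 hr replicate 2, 2 hr replicate 1 or 2 hr replicate 2), Sesn2 (0.14, 0.098, 0.09 and 0.077 without 0 hr replicate 1, 0 hr replicate 2, 2 hr replicate 1 or 2 hr replicate 2) and Ppp1r15a (0.069 without 0 hr replicate 1). Chaperones of the endoplasmic reticulum had 2 of 21 members that fell (9.5%, against 9.87% of all genes) and none that rose (unadjusted 2). Fewer fell when either 0 hr array was left out, and Hspa5 changed by -0.05 without a call.

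Of 22 antioxidant genes 2 rose (9.1%, against 9.51% of all genes) and 4 fell (18.2%, against 9.87%). Srxn1, sulfiredoxin, stood at 321 and 305 at 0 hr and 2026 and 4586 at 2 hr, and Hmox1, heme oxygenase, at 393 and 389.8 at 0 hr and 1339 and 1695 at 2 hr. Nqo1 and Gclm, which share the regulator Nrf2 with them, stood at 3397 and 3453 at 0 hr and 1291 and 961 at 2 hr and at 834 and 814 at 0 hr and 266 and 286 at 2 hr. The first pair rose by 3.28 ± 0.42 and 1.95 ± 0.19 and the second fell, with changes of -1.62 ± 0.21 and -1.58 ± 0.18 and with no overlap between the arrays. When 1 array was left out, 2, 2, 3 and 3 members fell, and in the Actb fit 2 rose and 2 fell.

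Genes of mRNA decay moved both ways. Zfp36, which binds AU-rich elements and whose promoter also holds a CArG box, rose from 202 and 219 to 615 and 864, or 1.79 ± 0.23, and Zfp36l2 by 1.57 ± 0.13. Of 21 genes of mRNA decay 6 rose and 3 fell. The falls were Tob1, also given with the FoxO list above, with a change of -1.52, Khsrp with one of -0.57 and Tia1 with one of -0.76 ± 0.10. The call of Khsrp was lost in every fit that left out 1 array. In the fits without 1 array, 2, 2, 4 and 3 members rose, and in the Actb fit 2 rose and 4 fell. Of 18 genes of the miRNA machinery none rose (unadjusted 1) and 2 fell (11.1%, against 9.87% of all genes). The falls were Cpsf6 with a change of -0.55 ± 0.11 and Prkra with one of -0.43 ± 0.11. Dicer1 and Drosha changed by 0.39 and -0.21 and were not called. Calls were lost for Cpsf6 (0.078 and 0.057 without 0 hr replicate 1 or 0 hr replicate 2) and Prkra (0.17, 0.08, 0.061 and 0.088 without 0 hr replicate 1, 0 hr replicate 2, 2 hr replicate 1 or 2 hr replicate 2). Of 29 genes of the miRNA networks that the study drew from these samples, 8 fell (2, 4, 5 and 6 with 1 array left out) and 2 rose, while in the Actb fit the balance turned and 5 rose and 3 fell. The study chose that list on these samples, so its direction is not independent evidence.

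The lens lists held called genes at shares that stood on both sides of the 19.4% of all genes. Of 29 fiber genes 3 rose (10.3%) and 1 fell (3.4%), and the α-crystallins Cryaa and Cryab changed by 0.07 and 0.10 without a call. Cryaa stood close to the highest 0 hr intensity of any probe set, 23070, and whether its signal could still have risen was not tested. None of the β-crystallins was called, and Cryba1, at 7269 and 6832 at 0 hr and 2970 and 5327 at 2 hr, had 2 hr arrays far apart. Bfsp1, filensin of the beaded filament, stood at 252 and 273 at 0 hr and 155 and 169 at 2 hr and fell by 0.69 ± 0.13. Dnase2b, the nuclease that clears fiber nuclei, was faint and rose by 0.91 ± 0.22. Of 23 epithelial genes none rose (unadjusted 3) and 5 fell (21.7%, against 9.87% of all genes). Pitx3, a factor mutated in cataract, stood at 685 and 629 at 0 hr and 349 and 287 at 2 hr and fell by 1.05 ± 0.14. Mab21l1 stood at 7115 and 7072 at 0 hr and 4784 and 4940 at 2 hr and fell by 0.55 ± 0.09. Foxe3 and Pax6, factors of the epithelium, changed by -0.02 and -0.25 and were not called. After 1 array was left out, 3, 2, 4 and 4 of the epithelial genes fell and 0, 1, 3 and 1 of the fiber genes rose, in the Actb fit 0 rose and 3 fell in each of these lists, and calls were lost for Bfsp1 (0.066 without 0 hr replicate 2) and Dnase2b (0.12, 0.11 and 0.11 without 0 hr replicate 1, 0 hr replicate 2 or 2 hr replicate 2).

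The 2 hr arrays differed from the 4 hr arrays at 694 probe sets that were higher (2.24%) and 465 that were lower (1.5%) at 4 hr, by the same fit, and with 1 probe set per gene 4.66% differed. Of the rises at 2 hr, 154 were lower at 4 than at 2 hr and 187 higher. Of the 130 rises of at least 4-fold, 25 were lower at 4 hr and 6 higher. Rises and falls were picked on the same 2 hr arrays that 4 hr is compared with, and such a choice by itself favors a return at 4 hr. Its part in these counts and in the single genes was not tested. Errfi1, of the genes risen at 2 hr, had the largest drop, from 1633 and 1901 to 283 and 381, against 214 and 213 at 0 hr, and dropped by 2.43 ± 0.15 (adjusted p 0.00033). The differences from 2 to 4 hr were -1.47 ± 0.19 for Ets2, -1.33 ± 0.25 for Egr2, -1.16 ± 0.19 for Dusp5 and -0.98 ± 0.13 for Nab2. Irx3, at a probe set other than its brightest, went from 15.4 and 18.2 at 0 hr to 136 and 157 at 2 hr and 37.8 and 60.6 at 4 hr. Pfkfb3, which drives glycolysis, rose to 1898 and 2724 at 2 hr and stood at 519 and 798 at 4 hr, below its 0 hr arrays (1097 and 1067), and the call of its rise was lost (0.066, 0.069 and 0.054 without 0 hr replicate 1, 0 hr replicate 2 or 2 hr replicate 2).

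For other early genes no difference was called. Between 4 and 2 hr Egr1 differed by -0.08 ± 0.10, Junb by -0.17 ± 0.12, Ier2 by -0.10 ± 0.12 and Nptx1 by -0.01 ± 0.32. Another kind of gene rose by 2 hr and was higher again at 4 hr. The chemokine Ccl20 stood at 81.6 and 167, 552 and 498 and 4344 and 4504 at 0, 2 and 4 hr, and the clock factor Npas2 at 28.2 and 30.8, 40.5 and 39.4 and 333 and 357. The rise of Npas2 at 2 hr was small and its call was lost (0.12, 0.051 and 0.053 without 0 hr replicate 1, 0 hr replicate 2 or 2 hr replicate 1). Il18 and Wnt4 were higher again at 4 hr by 1.66 ± 0.19 and 1.63 ± 0.24. Some falls were brief as well, since Msx2, a BMP-responsive homeobox gene, went from 463 and 492 to 199 and 219.9 and then 715 and 665, and Nell2 from 125 and 177 to 47.8 and 19.8 and then 124 and 159. Fits on the 2 and 4 hr arrays alone called 12 probe sets higher and 0 lower, against 1602 and 1483 at unadjusted p, and the number that differed was 627 without 2 hr replicate 2, 762 without 4 hr replicate 1 and 1746 without 4 hr replicate 2.

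**Figure D5:**
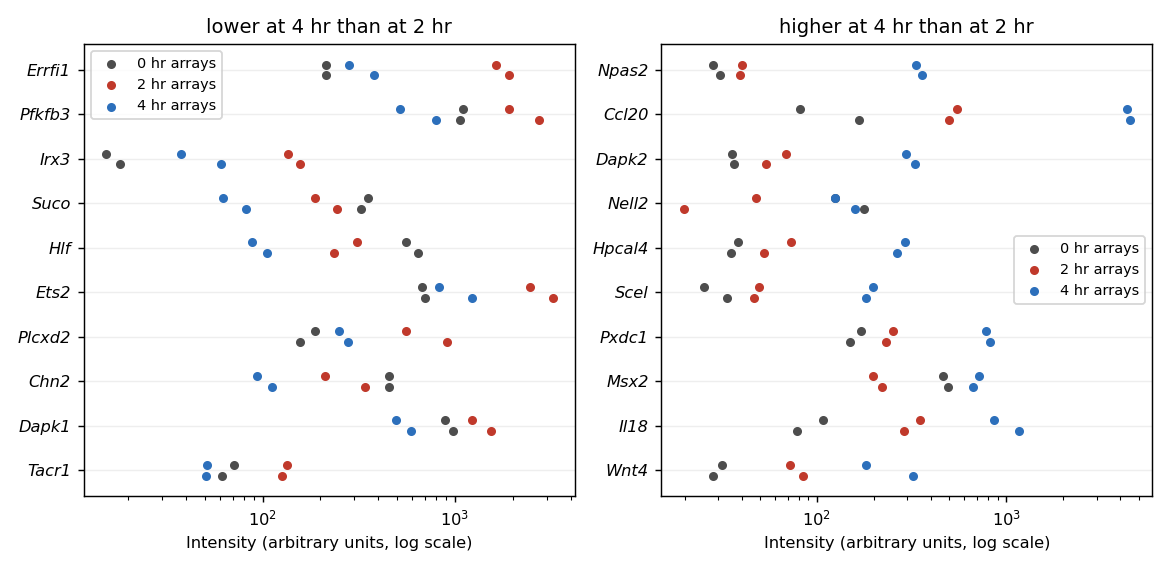
Intensity on a log scale on each array at 0, 2 and 4 hr (n = 2 per time) of the 10 genes with the largest drop and the 10 with the largest gain from 2 to 4 hr among genes called at 2 hr. Errfi1, Ets2 and Plcxd2 peak at 2 hr, Suco, Hlf and Chn2 fall further, and Ccl20, Npas2 and Dapk2 gain most after 2 hr.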

How the data were processed

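Total RNA of lens explants was amplified from 50 ng, labeled with biotin and hybridized to Affymetrix arrays. The intensity values were deposited on a linear scale after the authors had normalized all arrays by RMA, whose version is not given in the sources used here. The number of probe sets and the array names point to the Rat Genome 230 2.0 array, while the methods name another one. Here log2 was taken without rescaling, and 57 array controls were left out.

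In R 4.3.3, limma 3.58.1 was fitted to all 10 arrays with the time point as the factor (5 residual degrees of freedom) with eBayes and Benjamini-Hochberg adjustment over 31042 probe sets. Errors are standard errors (median 0.119). The 2 arrays per time came from separate cultures per the methods, and their number limits the precision. Gene symbols came from the array annotation: 20826 probe sets had 1 symbol (14217 genes), 436 several and 9780 none, and 20764 IDs matched the reference table. Each gene of a list is shown by its brightest probe set. Some genes stand in more than 1 list, so the counts of different lists are not separate. The members and lists were chosen with earlier results of these data known, and no list was tested as a set. Named genes are the 20 largest rises and falls with separate arrays, the list members, and the 10 largest differences each way between 4 and 2 hr. Promoters and spans are from RefSeq (GRCr8), and the build of the files is not named. Alternatives were the methods' analysis of variance, unadjusted p, other sets of arrays, priors, normalizations and filters, array weights, a replicate block, the Actb ratio, and each array left out.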

Additional observations from a re-analysis of the deposited data

How the results depend on the processing

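No alternative changed the direction of any of the 322 called genes that were followed. For most alternatives this was fixed in advance, since the 0 and 2 hr arrays of called probe sets do not overlap. Only the other normalizations and the Actb ratio could have turned a direction. Of the 322 genes, 129 stayed called under all 16 alternatives other than the adjusted analysis of variance. The methods' analysis of variance on the 0 and 2 hr arrays alone called 6243 probe sets at unadjusted P and 8 of the other early genes, and after Benjamini-Hochberg adjustment 0 probe sets and 0 members of every list, where limma on the same 4 arrays called 2098 rises and 2030 falls. Unadjusted p in limma called 9496 probe sets (4534 rises, 4962 falls). Without the 12 and 24 hr arrays 3359 were called (1759 rises, 1600 falls), and with the Actb ratio as a covariate 2460 (1330 rises, 1130 falls), 201 of the list genes in place of 302, 8 of the other early genes and 8 of the SRF genes. The cause was not tested. With 1 array left out the calls ranged from 1928 to 4210, the rises from 1069 to 2210, the falls from 859 to 2108 and the called list genes from 158 to 261, with the low ends without a 0 hr array, where the lone array is assumed to vary like the other times. The early lists ranged from 6 to 9 (Fos, Jun), 9 to 10 (Egr, Nr4a, Klf) and 9 to 18 (other), NF-κB from 7 to 9, SRF from 8 to 12 and FoxO falls from 6 to 10. Between 2 and 4 hr, the arrays of these times alone called 12 probe sets (12 higher and 0 lower by limma, 1483 lower at unadjusted p), and leaving out 1 array gave 627 to 1746 in all, 389 to 837 higher and 238 to 909 lower. Deviations of same-numbered arrays correlated at -0.009 for 0 and 2 hr and at 0.327 for 2 and 4 hr, and from -0.147 to -0.003 for the other pairs of times. The numbers were therefore not taken to pair the samples over the series, and pairing of the 2 and 4 hr arrays was not settled. With the replicate block 2498 probe sets rose and 2510 fell at 2 hr, and 577 were higher and 417 lower at 4 than at 2 hr.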

Other observations

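Genes of the basic machinery of the cell were counted in the same way. Of 25 ribosomal protein genes none was called at 2 hr (limma, 0 higher and 0 lower at unadjusted p), with a median of -0.07, and of 40 genes of ribosome biogenesis 5 rose (1, 0, 3 and 4 without 0 hr replicate 1, 0 hr replicate 2, 2 hr replicate 1 and 2 hr replicate 2, the order used below) and 1 fell, all by less than 2-fold, and in the Actb fit 3 rose and 0 fell. Of 39 genes of oxidative phosphorylation 1 rose and 4 fell, with a median of -0.12, and 0, 0, 1 and 0 fell with 1 array left out, and in the Actb fit 0 rose and 0 fell. Of 26 genes of glycolysis and hypoxia 3 rose (1, 1, 2 and 1 with 1 array left out, and in the Actb fit 1 rose and 2 fell) and 2 fell. Slc2a3, a glucose transporter of high affinity, stood at 458 and 514 at 0 hr and 2417 and 2443 at 2 hr, a rise of 2.32 ± 0.14, whereas Slc2a1 changed by 0.13 and was not called. Of 23 cholesterol and lipid genes none rose (1 at unadjusted p) and 3 fell (1, 1, 3 and 2 with 1 array left out), among which Acss2 fell by 0.63 ± 0.10. In the Actb fit the direction of that list turned, since 6 rose and 1 fell. Of 20 heat shock genes 3 rose (1, 2, 2 and 3 with 1 array left out, 1 in the Actb fit) and 1 fell, and the cochaperone gene Bag3 stood at 132 and 139 at 0 hr and 460.3 and 479 at 2 hr, a rise of 1.80 ± 0.11.

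Of 20 clock genes 5 rose and 4 fell, and in the Actb fit 0 rose and 6 fell. The clock output factors Dbp and Tef stood at 566 and 628 at 0 hr and 271 and 281 at 2 hr and at 749.9 and 728 at 0 hr and 369.7 and 350.2 at 2 hr. Both fell, with changes of -1.11 ± 0.13 and -1.04 ± 0.09, Tef at all 3 of its probe sets. Bmal1 rose by 1.51 ± 0.29 and Nr1d1 and Nr1d2, its repressors, fell, with changes of -0.74 ± 0.17 and -0.60 ± 0.14. Calls were lost for Bmal1 (0.066 and 0.057 without 0 hr replicate 1 or 0 hr replicate 2), Nr1d1 (0.069, 0.11 and 0.082 without 0 hr replicate 1, 0 hr replicate 2 or 2 hr replicate 1) and Nr1d2 (0.11, 0.083 and 0.081 without 0 hr replicate 1, 0 hr replicate 2 or 2 hr replicate 1). With 1 array left out 0, 1, 4 and 3 clock genes rose and 2, 2, 2 and 4 fell.

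Chromatin regulators rose at 5 of 27 members (3, 4, 5 and 4 with 1 array left out) and fell at 1, and in the Actb fit 3 rose and 1 fell. Hdac5, a class II histone deacetylase, stood at 505 and 519.7 at 0 hr and 1464 and 1539 at 2 hr, a rise of 1.55 ± 0.16, and the demethylase gene Kdm7a rose by 0.76 ± 0.09. Of 32 matrix and adhesion genes 2 rose (1, 0, 1 and 2 with 1 array left out) and 1 fell, and the collagens Col4a1 and Col4a2 of the lens capsule changed by -0.06 and -0.10 without a call. Among 34 further transcription factors 7 rose (4, 4, 5 and 7 with 1 array left out) and 2 fell. Runx1 stood at 121 and 106 at 0 hr and 325 and 497 at 2 hr, a rise of 1.83 ± 0.19, and Nfatc2 at 276 and 282 at 0 hr and 803 and 582 at 2 hr, a rise of 1.29 ± 0.15, each at both of its probe sets.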
